A study of Mus musculus with 9 samples.

Results

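C-type lectin receptors and formyl peptide receptors are surface proteins with which macrophages sense microbes and damaged tissue. Their transcripts were followed by RNA sequencing of RAW264.7, an established line of mouse cells with macrophage character. The set was defined by 7 gene symbols: Clec4e, Clec4d, Clec4n, Clec7a, Clec5a, Fpr1 and Fpr2. Of these, 6 are among the 12474 rows of the expression table, and Fpr1 is not analysed here. There were 3 groups of 3 libraries, all from wild-type cells of this single line. The I group was polarized with 100 ng/ml lipopolysaccharide (LPS) plus 50 ng/ml mouse interferon gamma while potassium iodide was present at 20 mM. The M1 group had the same LPS and interferon gamma without added iodide, and the Mock group was untreated. How long the cells were treated is not given in the sources used here, and since no group received another salt, an effect of iodide cannot be told apart from one of potassium or of osmolarity.

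The C-type lectin receptors bind sugars, glycolipids and other ligands on microbes or dying cells. Clec4e, Clec4d and Clec4n signal through the immunoreceptor adaptor FcRγ, encoded by Fcer1g, while Clec7a carries a tyrosine motif of its own and Clec5a pairs with the adaptor DAP12, encoded by Tyrobp. These routes meet at the kinase Syk, and Card9 links it to NF-kB. Fpr2 is a G protein-coupled receptor for formylated bacterial peptides and for host ligands such as annexin A1, and it drives chemotaxis.

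Levels are FPKM, fragment counts scaled by gene length and by sequencing depth, so they can be set beside each other between genes. Library totals recovered from the FPKM values lay between 17431070 and 25470730 fragments. Within groups, Pearson's r between libraries across tested genes, which are not independent replicates, was 0.9968 to 0.9973. Whether the libraries derive from separate cultures is not stated in the labels, and the p-values therefore measure only library-to-library spread, possibly of technical origin. All 10 macrophage markers examined are in the table, 9 of them at 0.5 FPKM or more in every library. Their summed level was 2410 to 2520 FPKM in I, 3300 to 3410 in M1 and 4600 to 4690 in Mock. That sum is dominated by a few genes, and the markers differed in direction: of 9 tested, 5 were higher and 4 lower in M1 vs Mock, and 2 were higher and 7 lower in I vs M1. Lyz2 averaged 675 FPKM in I, 1138 in M1 and 3155 in Mock, whereas Adgre1 averaged 35.1 FPKM in I, 103 in M1 and 21.7 in Mock. No gene of the neutrophil, fibroblast or epithelial lists is in the table, and of 8 T and B cell markers Lck alone is, at 3.29 to 3.48 FPKM in I, 3.34 to 3.96 in M1 and 4.60 to 5.26 in Mock. Of 6 dendritic cell markers 4 are in the table and only Cd83 exceeded 0.5 FPKM throughout. The summed level of that list was 50.1 to 53.9 FPKM in I, 24.7 to 25.2 in M1 and 9.73 to 11.2 in Mock. Nearly all of that sum was Cd83, which averaged 51.8 FPKM in I, 24.35 in M1 and 9.95 in Mock. Itgax, Zbtb46 and Xcr1 stayed under 0.5 FPKM in every library. By mean, Itgax and Zbtb46 were lowest in I, and Xcr1 was highest in I. The part of these marker levels in the results was not tested. In bulk RNA a change in the number of cells that carry a transcript and a change in RNA per cell cannot be told apart.

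The receptors divided by their response. Clec4e, Clec4d, Clec4n and Fpr2 were higher in M1 than in Mock, and Clec5a was lower. With iodide, Clec7a and Fpr2 fell 6.79-fold and 5.41-fold relative to M1, Clec4n and Clec4e fell less, Clec4d rose slightly and Clec5a showed no called difference. At a limma adjusted p under 0.05, 4 of the 6 receptors were called higher and 2 lower in M1 vs Mock, where 85.8% of 11156 tested genes were called, 30.5% higher and 55.3% lower. In I vs M1, 1 receptor was higher and 4 were lower, where 64.2% of tested genes were called, 24.9% higher and 39.3% lower. In I vs Mock, 4 were higher and 2 lower, where 86.8% were called, 28.2% higher and 58.6% lower. With shares this high, a call by itself sets a receptor apart from few genes, and the sizes say more. The comparison of I with M1 uses the same M1 libraries as that of M1 with Mock, so the values of both are given side by side. Fpr2 passed the filter on low values only through its M1 and I libraries, so its difference from Mock was built into its being tested.

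**Figure D1:**
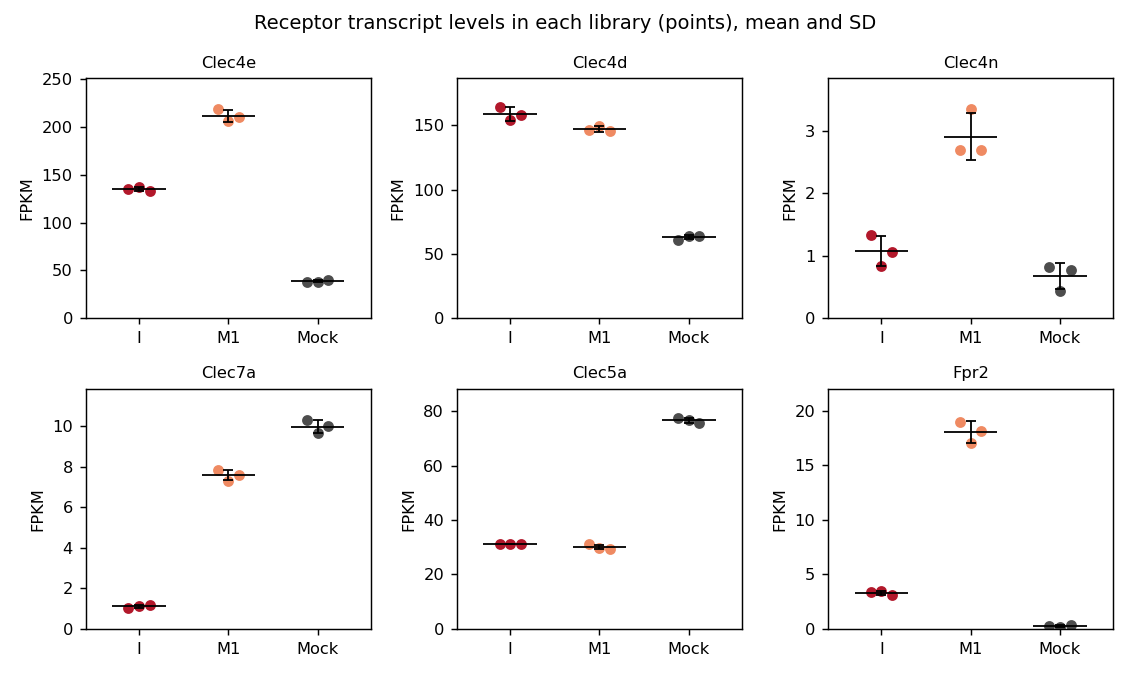
FPKM of the 6 receptors in each library (points), with the mean (line) and SD (bars) of 3 libraries for I, M1 and Mock; each panel has its own axis starting at 0. Clec4e and Fpr2 were highest in M1 at means of 212 and 18.0 FPKM, Clec7a and Clec5a were highest in Mock, and Clec4d was high in both polarized groups.

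Called changes (limma adjusted p under 0.05) that were also beyond 2-fold on the log2 scale were rarer among all genes. In M1 vs Mock 6.78% of tested genes were called and rose that far, and 16.1% were called and fell that far. For I vs M1 the shares were 1.06% and 0.771%, and in I vs Mock they were 6.98% and 18%. By size of change on the log2(FPKM + 1) scale, Fpr2 ranked 29 and Clec4e 113 from the largest rise in M1 vs Mock. Since Fpr2 was tested only through its polarized libraries, its rank there describes size alone. Fpr2 ranked 6 and Clec7a 9 from the largest fall in I vs M1, and Clec4n ranked 118. The 1 added to each FPKM compresses changes at low levels, so these ranks depend on it. By fold of means, Clec7a fell more than Fpr2 in I vs M1 (6.79-fold and 5.41-fold). The median tested gene changed by -0.23 on the log2 scale in M1 vs Mock, -0.07 with iodide relative to M1, and -0.30 with iodide relative to Mock. Median-of-ratios scaling, which centres the bulk of genes, brought these to 0.02, -0.01 and 0. With that scaling 43.7% of genes were higher and 42.1% lower in M1 vs Mock, 30.4% and 32.5% in I vs M1, and 42.9% and 42.7% in I vs Mock.

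Clec4e encodes Mincle, the receptor for the mycobacterial glycolipid cord factor. It lies on chromosome 6 (ENSMUSG00000030142.10, 123281789 to 123289870, minus strand, GRCm38). Its level was 135.7, 137.1 and 133.0 FPKM in I, 219.2, 206.5 and 210.2 in M1, and 38.3, 38.3 and 40.1 in Mock. The 3 groups did not overlap, with M1 highest and I between M1 and Mock. In M1 vs Mock the mean was 5.45-fold higher (log2 fold change 2.42 ± 0.03 SE, limma adjusted p = 9.28e-14), which is 2.65 above the median gene. In I vs M1 Clec4e fell (log2 fold change -0.64 ± 0.03 SE, adjusted p = 2.48e-08), yet it stayed 3.48-fold higher in I than in Mock (adjusted p = 7.56e-13).

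Clec4d encodes MCL, also called dectin-3, a partner of Mincle in the same receptor complex. Its gene lies next to Clec4e on chromosome 6 (ENSMUSG00000030144.4, 123262111 to 123275265, plus strand), and the 3′ ends of both genes face each other across 6.5 kb. Clec4d stood at 164.3, 154.1 and 157.7 FPKM in I, 146.2, 149.5 and 145.2 in M1, and 61.1, 64.0 and 64.0 in Mock. All polarized libraries lay above all Mock libraries, and every I library lay above every M1 library by a small margin. Its rise in M1 vs Mock was 2.33-fold (log2 fold change 1.21 ± 0.03 SE, limma adjusted p = 1.67e-11). The I vs M1 difference was 0.11 on the log2 scale (95% interval 0.04 to 0.18, adjusted p = 0.00834). Scaling moved this small value to 0.18 with median of ratios, 0.16 with upper quartiles and 0.20 with quantile scaling, always in the same direction.

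The ratio of Clec4e to Clec4d FPKM within a library does not depend on library scaling. It was 0.826, 0.89 and 0.843 in I, 1.5, 1.38 and 1.45 in M1, and 0.626, 0.598 and 0.627 in Mock. By FPKM, Clec4d was thus the more abundant of the pair in I and Mock, and Clec4e in M1. That order rests on the exon lengths used, 4965 bases for Clec4e and 1599 for Clec4d. In recovered fragments, which are not scaled by length, Clec4e was above Clec4d in every library. The mean ratio was 0.853 ± 0.033 in I, 1.44 ± 0.059 in M1 and 0.617 ± 0.016 in Mock (SD, n = 3 each). Each of the 3 comparisons gave a two-sided exact permutation p of 0.1, the smallest that 3 against 3 libraries allow. The choice of this ratio was made with the values already known.

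**Figure D2:**
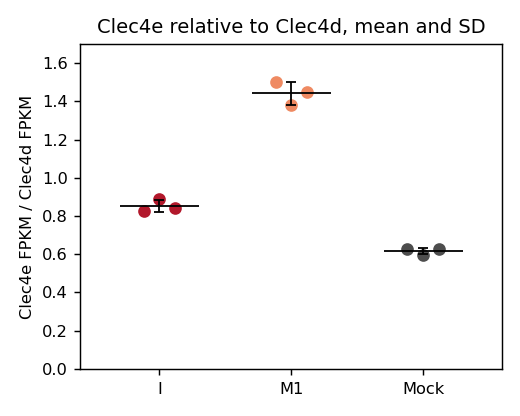
Ratio of Clec4e FPKM to Clec4d FPKM in each library (points), with mean (line) and SD (bars) of 3 libraries per group. The M1 libraries, at 1.38 to 1.5, sit above the I libraries, at 0.826 to 0.89, and the Mock libraries, at 0.598 to 0.627.

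Clec4n encodes dectin-2, a receptor for fungal mannans, and is the neighbour of Clec4d on the other side (ENSMUSG00000023349.14, 123229843 to 123247021, plus strand). Its transcript was scarce, at 1.33, 0.843 and 1.06 FPKM in I, 2.69, 3.35 and 2.7 in M1, and 0.829, 0.444 and 0.768 in Mock. These values rest on 22 to 40 fragments per library in I, 68 to 104 in M1 and 11 to 30 in Mock. The M1 libraries were above the rest, while the lowest I library lay just above the highest Mock library. Clec4n rose 4.28-fold in M1 vs Mock (log2 fold change 1.22 ± 0.11 SE, limma adjusted p = 9.85e-07) and fell in I vs M1 (-0.91 ± 0.11 SE, adjusted p = 3.52e-05). The added pseudocount of 1 compresses changes at such levels, and limma-voom on recovered fragments gave 2.08 and -1.43. The I vs Mock difference (0.31 ± 0.11 SE, adjusted p = 0.0227) was not called without Mock replicate 2 (0.20, adjusted p = 0.0976) or without I replicate 1 (0.22, adjusted p = 0.0952). It was larger with quantile scaling (0.60, adjusted p = 0.000369) and median-of-ratios scaling (0.47, adjusted p = 0.00205), and limma-voom on recovered fragments put it at 0.65 (adjusted p = 0.036).

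Clec7a encodes dectin-1, the receptor for fungal beta-glucans (ENSMUSG00000079293.11, chromosome 6, 129461591 to 129472779, minus strand). GENCODE vM21 classes this mouse gene as a polymorphic pseudogene. Clec7a measured 1.05, 1.13 and 1.16 FPKM in I, 7.83, 7.33 and 7.6 in M1, and 10.3, 9.68 and 10.0 in Mock. The I libraries were far below both other groups, which lay close together without overlapping. Relative to M1 it fell with iodide by 2.02 on the log2 scale (95% interval -2.12 to -1.92, limma adjusted p = 1.06e-10), and its level in I was 8.94-fold lower than in Mock (adjusted p = 1.57e-12). In fragments, 173 were recovered over the I libraries and 1190 over the M1 libraries, a depth-scaled ratio of 0.147 (exact 95% interval 0.125 to 0.173, counting error only). The smaller M1 vs Mock difference (log2 fold change -0.35 ± 0.04 SE, adjusted p = 1.45e-05) lost its call with median-of-ratios scaling (-0.07, adjusted p = 0.144) and with quantile scaling (-0.08, adjusted p = 0.113).

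Clec5a encodes MDL-1, a DAP12-coupled receptor best known for binding dengue virus, and lies elsewhere on chromosome 6 (ENSMUSG00000029915.14, 40574894 to 40585821, minus strand). Its level was 31.2, 31.1 and 31.1 FPKM in I, 31.0, 29.7 and 29.4 in M1, and 77.6, 76.7 and 75.7 in Mock. Mock stood far above both polarized groups, which were nearly level. Clec5a was 2.55-fold lower in M1 than in Mock (log2 fold change -1.32 ± 0.03 SE, limma adjusted p = 3.78e-12) and 2.46-fold lower in I than in Mock (adjusted p = 4.07e-12). The I vs M1 difference was 0.05 on the log2 scale with a 95% interval of -0.01 to 0.11 (adjusted p = 0.123). It was called higher in I with median-of-ratios scaling (0.12, adjusted p = 0.00394) and other scalings, and without M1 replicate 1 (0.07, adjusted p = 0.0266).

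Fpr2 is the only formyl peptide receptor of the set that could be followed (ENSMUSG00000052270.7, chromosome 17, 17887824 to 17893952, plus strand). The annotated span of Fpr3 overlaps it on the same strand. Whether their exons overlap, and so whether some reads could belong to either gene, was not tested. Fpr2 reached 3.38, 3.49 and 3.13 FPKM in I and 18.96, 17.01 and 18.1 in M1, against 0.303, 0.133 and 0.382 in Mock. The Mock values rest on 10, 3 and 10 fragments, the M1 values on 417 to 489 and the I values on 78 to 93. No group overlapped another, and I lay between M1 and Mock. From summed fragments the M1 to Mock ratio was 63.9 (exact 95% interval 42.4 to 101, counting error only) and the I to Mock ratio 11.8 (7.72 to 19.0). On the log2(FPKM + 1) scale Fpr2 rose by 3.91 ± 0.07 SE in M1 vs Mock, and limma-voom on recovered fragments gave 6.02. For I vs Mock the corresponding values were 1.77 and 3.59. Since Fpr2 was tested only through its polarized libraries, these differences from Mock are given as sizes without p-values. With iodide Fpr2 fell by 2.13 relative to M1 (log2 scale, 95% interval -2.30 to -1.97, adjusted p = 3.18e-09).

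**Figure D3:**
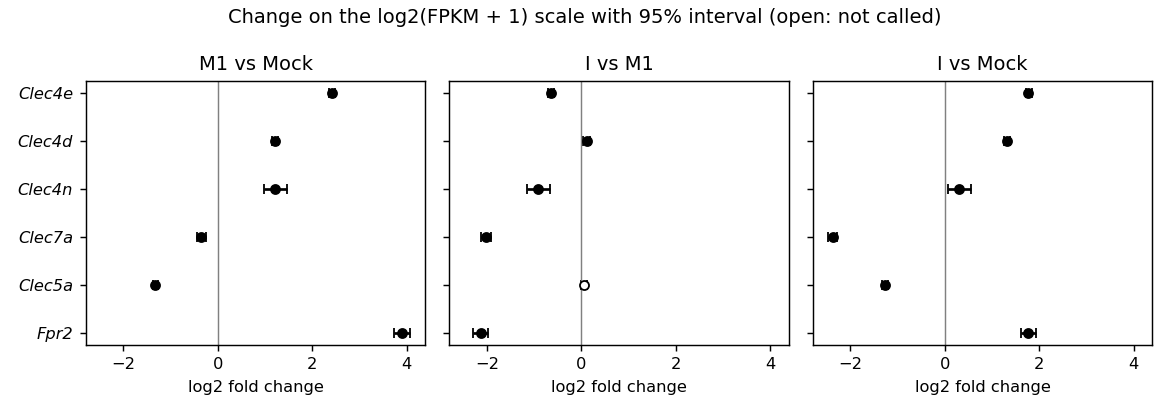
Log2 fold change of each receptor on the log2(FPKM + 1) scale (points) with its 95% limma interval (bars), in 3 panels, M1 vs Mock, then I vs M1, then I vs Mock; the open point was not called. Fpr2 and Clec4e lie farthest right in M1 vs Mock at 3.91 and 2.42, and Fpr2 and Clec7a farthest left in I vs M1 at -2.13 and -2.02.

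In order of level within a group, Clec4d led in I at 159 ± 5.2 FPKM, followed by Clec4e at 135 ± 2.1, Clec5a at 31.1 ± 0.039, Fpr2 at 3.33 ± 0.18, Clec7a at 1.12 ± 0.056 and Clec4n at 1.08 ± 0.24 (SD, n = 3 each). The values of Clec7a and Clec4n overlapped there. In M1 the order was Clec4e, Clec4d, Clec5a, Fpr2, Clec7a and Clec4n, with no overlap between neighbours. In Mock it was Clec5a, Clec4d, Clec4e, Clec7a, Clec4n and Fpr2, again with no overlap. No receptor's groups overlapped in any of the 3 comparisons, which also held for 86.4% of all tested genes in M1 vs Mock (30.7% higher, 55.6% lower), 67.2% in I vs M1 (26.4% and 40.8%) and 87.1% in I vs Mock (28.5% and 58.6%). Over the 9 libraries, the closest pairs of receptors after removal of each gene's mean were Clec4d with Clec4e and Clec4d with Clec4n, each at a root mean square distance of 0.50 on the log2 scale. The most distant pair was Clec5a with Fpr2 at 2.15.

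The start regions of 4 receptors are shown because Clec4e and Clec4d are adjacent genes that diverged with iodide, while Clec7a and Fpr2 fell most. They are RefSeq windows of GRCm38.p6, from 250 bases before to 50 bases after the start site, printed 5′ to 3′ on the gene's strand. Capitals mark GAGGAA, the core recognised by the myeloid factor PU.1, or its reverse complement.
Clec4e, chr6:123289822-123290121, minus strand: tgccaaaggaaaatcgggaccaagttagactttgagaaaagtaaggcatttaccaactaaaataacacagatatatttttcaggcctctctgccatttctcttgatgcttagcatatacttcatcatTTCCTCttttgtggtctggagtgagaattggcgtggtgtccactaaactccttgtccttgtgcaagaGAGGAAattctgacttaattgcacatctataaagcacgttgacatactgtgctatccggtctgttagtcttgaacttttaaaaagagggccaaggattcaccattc
Clec4d, chr6:123261857-123262156, plus strand: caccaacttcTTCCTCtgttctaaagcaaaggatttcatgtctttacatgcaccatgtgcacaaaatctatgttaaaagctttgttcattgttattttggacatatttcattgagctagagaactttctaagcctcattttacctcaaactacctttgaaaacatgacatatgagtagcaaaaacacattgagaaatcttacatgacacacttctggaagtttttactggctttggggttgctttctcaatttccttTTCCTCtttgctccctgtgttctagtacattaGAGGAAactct
Clec7a, chr6:129472730-129473029, minus strand: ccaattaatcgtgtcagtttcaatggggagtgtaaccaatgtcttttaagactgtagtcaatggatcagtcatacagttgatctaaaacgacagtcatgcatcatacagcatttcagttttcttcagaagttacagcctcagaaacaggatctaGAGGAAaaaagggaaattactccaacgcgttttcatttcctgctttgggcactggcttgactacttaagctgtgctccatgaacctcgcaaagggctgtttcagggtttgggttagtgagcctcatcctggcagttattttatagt
Fpr2, chr17:17887574-17887873, plus strand: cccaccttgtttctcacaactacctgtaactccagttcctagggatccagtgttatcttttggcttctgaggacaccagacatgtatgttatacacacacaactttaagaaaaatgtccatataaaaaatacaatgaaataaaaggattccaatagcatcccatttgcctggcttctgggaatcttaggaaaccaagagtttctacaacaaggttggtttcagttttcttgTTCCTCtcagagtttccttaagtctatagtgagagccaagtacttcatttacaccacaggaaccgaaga
GAGGAA on either strand was found in all 5 receptor windows searched, which are these 4 and Clec5a. It occurs in 28.3% of 32851 windows of the same length, with those of 1 chromosome left out. These are the windows called all windows below. There were 3 matches in Clec4d, 2 each in Clec4e and Clec5a, and 1 each in Clec7a and Fpr2. TATAAA was found in 4 of the 5 windows and in 13.6% of all windows, and in Clec4e it begins 29 bases before the start. The interferon-activated motif TTCNNNGAA was found in Fpr2 alone, 77 bases before the start, and in 8.3% of all windows. TTGCNNAA, a C/EBP motif, was found in Clec4e alone (10.8% of all windows), TGGAAA, the core of the osmotic response element, in Clec5a alone (21.4%), and the interferon-sensitive response element in Clec4d alone (3.44%). In Clec4d the last of these overlaps a PU.1 core match. Neither the AP-1 motif TGANTCA (7.81% of all windows) nor the kappa B consensus (8.46%) was found in the 5 windows. All motifs were searched on both strands, and a match is a string of letters, not a bound site.

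Of 29 genes listed for C-type lectin receptor signalling, 28 were tested. In M1 vs Mock 13 were higher, 12 lower and 3 not called, with a median log2 fold change of 0.14 against -0.23 for all tested genes, of which 30.5% were higher and 55.3% lower. In I vs M1 11 were higher, 14 lower and 3 not called, with a median of -0.17 against -0.07 for all tested genes, of which 24.9% were higher and 39.3% lower. With median-of-ratios scaling the M1 vs Mock count was 17 higher and 9 lower, beside 43.7% and 42.1% of all tested genes.

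Fcer1g, the adaptor of the Clec4 receptors, was at 452.7, 419.9 and 447.4 FPKM in I, 410.1, 430.6 and 432.3 in M1, and 171.2, 170.0 and 184.4 in Mock. It was higher in both polarized groups, by 1.27 in M1 vs Mock (limma adjusted p = 9.93e-11) and 1.32 in I vs Mock. I and M1 overlapped (log2 fold change 0.05, adjusted p = 0.277), although all 3 scalings called a small rise of 0.10 to 0.12. Syk was at 38.9 ± 0.92 FPKM in I, 24.3 ± 0.5 in M1 and 6.09 ± 0.21 in Mock. It thus rose in M1 (log2 fold change 1.83, adjusted p = 1.67e-12) and rose further with iodide (0.66, adjusted p = 5.13e-08). Card9 went the other way, at 23.4 ± 1.3 FPKM in I, 29.55 ± 0.74 in M1 and 48.15 ± 1.5 in Mock, with a fall in I vs M1 (-0.33, adjusted p = 5.02e-05). Tyrobp, the adaptor of Clec5a, was at 260 ± 11 FPKM in I, 349 ± 16 in M1 and 233 ± 15 in Mock, and was lower in I than in M1 (-0.43, adjusted p = 2.85e-05).

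Of the other listed signal genes, Malt1, a protease that works with Card9, was at 6.05 ± 0.2 FPKM in I, 12.7 ± 0.63 in M1 and 5.305 ± 0.3 in Mock. Its I vs M1 change was -0.96 on the log2 scale (limma adjusted p = 5.58e-08). The tyrosine kinase gene Src was at 7.92 ± 0.4 FPKM in I, 11.9 ± 0.22 in M1 and 0.356 ± 0.06 in Mock. Like Fpr2, Src was under 0.5 FPKM in every Mock library and was tested only through the polarized groups, so its difference from Mock is given as levels alone. Vav1, a guanine nucleotide exchange factor, measured 90.9 ± 1.1 FPKM in I, 77.4 ± 0.77 in M1 and 51.0 ± 0.39 in Mock.

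**Figure D4:**
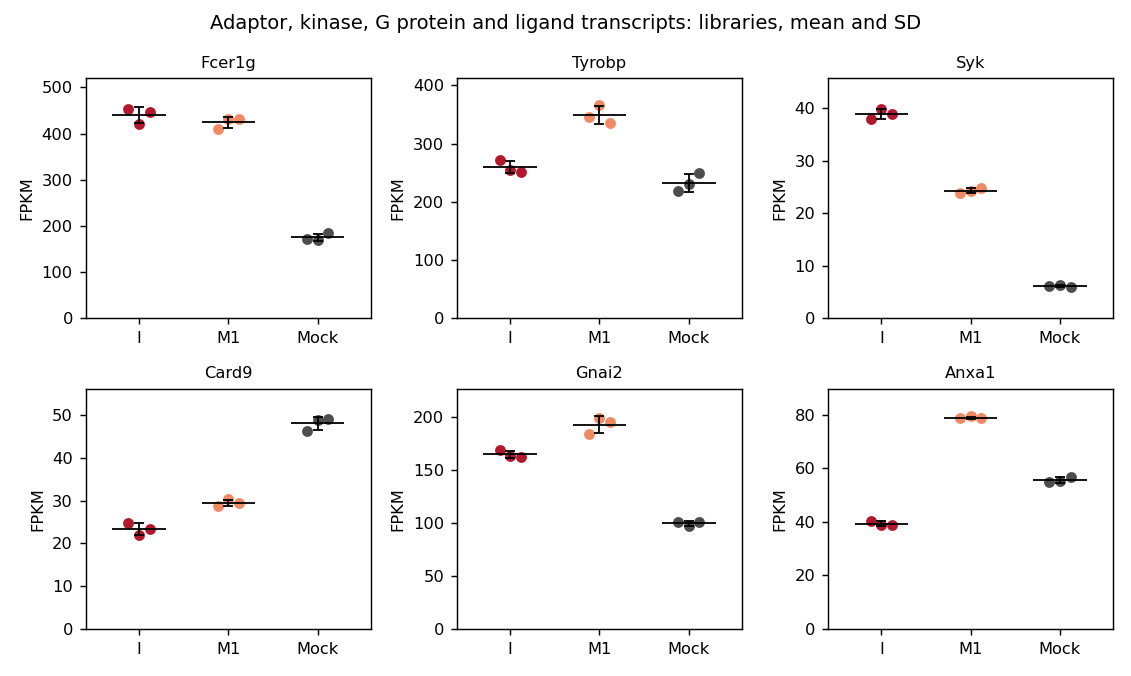
FPKM of the adaptors Fcer1g and Tyrobp, the kinase Syk, the adaptor Card9, the G protein subunit Gnai2 and the ligand Anxa1 in each library (points), with mean (line) and SD (bars) of 3 libraries for I, M1 and Mock. Syk was highest in I at 38.9 FPKM, Card9 highest in Mock at 48.15 FPKM, and Anxa1 lowest in I at 39.3 FPKM.

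For Fpr2, 26 of 27 genes listed for formyl peptide receptor signalling were tested. In M1 vs Mock 11 were higher, 7 lower and 8 not called, with a median log2 fold change of 0.05 against -0.23 for all tested genes (30.5% higher, 55.3% lower). In I vs M1 8 were higher, 14 lower and 4 not called, with a median of -0.16 against -0.07 (24.9% higher, 39.3% lower). With median-of-ratios scaling the counts were 19 higher and 4 lower in M1 vs Mock, beside 43.7% and 42.1% of all tested genes. They were 11 higher and 13 lower in I vs M1, beside 30.4% and 32.5%. Gnai2, which encodes the inhibitory G protein subunit that formyl peptide receptors use, was at 165 ± 3.6 FPKM in I, 193 ± 7.9 in M1 and 99.7 ± 2.3 in Mock. Its change was 0.95 in M1 vs Mock (limma adjusted p = 2.48e-10) and -0.22 in I vs M1 (adjusted p = 0.00015). Rac2, a GTPase of the leukocyte cytoskeleton and oxidase, was at 343 ± 6.3 FPKM in I, 382 ± 6.8 in M1 and 174 ± 4.4 in Mock. Grk6, a receptor kinase, was at 5.51 ± 0.46 FPKM in I, 3.315 ± 0.17 in M1 and 13.5 ± 0.076 in Mock.

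Among 12 genes listed as formyl peptide receptor relatives and ligands, 3 are in the table. Anxa1, the gene of annexin A1, was at 40.5, 38.7 and 38.9 FPKM in I, 78.8, 79.4 and 78.7 in M1, and 54.9, 55.3 and 56.8 in Mock. Its groups did not overlap. It rose by 0.50 in M1 vs Mock (limma adjusted p = 7.61e-09) and fell by 0.99 in I vs M1 (adjusted p = 4.69e-10), so that the I level was also below Mock. Saa3, a serum amyloid A gene whose family includes Fpr2 ligands, was at 18.1 ± 1.8 FPKM in I, 18.4 ± 0.75 in M1 and 1.68 ± 0.26 in Mock. Its I and M1 values overlapped.

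Of 47 other genes listed with C-type lectin domains, 15 are in the table and 11 were tested. In M1 vs Mock 6 were higher and 3 lower, with a median log2 fold change of 0.21, beside 30.5% and 55.3% of all tested genes. For I vs M1, 5 were higher and 4 lower, with a median of 0.16, beside 24.9% and 39.3%. With median-of-ratios scaling 5 were higher and 3 lower in I vs M1, beside 30.4% and 32.5% of all tested genes. Cd69, Cd93 and Clec4a1 had no Mock library at 0.5 FPKM and entered these counts only through polarized libraries. Cd93 and Clec4a1 had no M1 library at that level either and passed the filter only through their I libraries. Their higher calls in I vs M1 were therefore built into their being tested and add nothing to that count. Clec12a, an inhibitory receptor gene near Clec7a on chromosome 6, was at 5.72, 5.92 and 5.64 FPKM in I, 21.1, 19.8 and 20.3 in M1, and 17.9, 17.6 and 16.9 in Mock. The I libraries were well below both other groups, with a change of -1.66 in I vs M1 (limma adjusted p = 1.06e-10). Colec12, a scavenger receptor of the collectin family, was at 52.1 ± 1.3 FPKM in I, 26.2 ± 1.5 in M1 and 25.7 ± 0.32 in Mock, a rise of 0.96 in I vs M1 (adjusted p = 8.35e-09). Layn, which encodes the hyaluronan receptor layilin, was at 74.9 ± 2.5 FPKM in I, 47.4 ± 1.0 in M1 and 15.2 ± 0.84 in Mock.

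Of 22 other chemoattractant receptor genes listed, 16 are in the table and 15 were tested. In M1 vs Mock 8 were higher and 7 lower, with a median log2 fold change of 0.33, beside 30.5% and 55.3% of all tested genes. With iodide relative to M1, 6 were higher and 6 lower, with a median of 0.07, beside 24.9% and 39.3%. With median-of-ratios scaling 9 were higher and 6 lower in M1 vs Mock, beside 43.7% and 42.1% of all tested genes. In I vs M1 that scaling gave 7 higher and 6 lower, beside 30.4% and 32.5%. Ltb4r1 had no Mock library at 0.5 FPKM and S1pr1 no polarized library at that level, so the filter bears on their differences from Mock. Cxcr4 had no M1 library at that level, so the filter bears on its higher call in I vs M1 and its lower call in M1 vs Mock. Ccr2 had no I library at that level and passed mainly through Mock, so the filter bears on its lower calls against Mock. Ptafr, the receptor for platelet-activating factor, was at 8.18 ± 0.21 FPKM in I, 16.5 ± 0.35 in M1 and 7.80 ± 0.34 in Mock, a fall in I vs M1 of 0.93 on the log2 scale (limma adjusted p = 1.17e-08). Cx3cr1, with the smallest p of this list in each comparison, averaged 3.37 FPKM in I, 12.6 in M1 and 52.0 in Mock. Its I vs M1 change was -1.64 (adjusted p = 1.59e-09). The chemokine receptor Ccr1 was at 8.23 ± 0.77 FPKM in I, 1.93 ± 0.19 in M1 and 0.946 ± 0.096 in Mock, a rise of 1.65 in I vs M1 (adjusted p = 1.7e-08). Ltb4r1, the leukotriene B4 receptor, was at 6.03 ± 0.57 FPKM in I, 2.31 ± 0.48 in M1 and 0.186 ± 0.09 in Mock, a rise of 1.09 in I vs M1 (adjusted p = 5.25e-06).

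The genes with the most similar profiles were ranked by root mean square distance over the 9 libraries, on the log2(FPKM + 1) scale after removal of each gene's mean, among 7691 genes that reach 5 FPKM in some group. Clec7a was closest to Mmp9 (distance 0.252), Siglec1 (0.307) and Ccnd1 (0.312). Mmp9, a matrix metalloproteinase gene, averaged 1.73 FPKM in I, 9.83 in M1 and 19.0 in Mock. Fpr2 was closest to the scavenger receptor gene Cd36 (0.178), the cytokine gene Il1a (0.241) and Lix1 (0.379). Cd36 averaged 30.5 FPKM in I, 126 in M1 and 9.90 in Mock. For Clec4e the nearest were the heme oxygenase gene Hmox1 (0.06), Adap2 (0.071) and the integrin gene Itgb2 (0.071). Clec4d was nearest to Jak3, Apba3 and Tm9sf4 (0.042 to 0.045), Clec5a to Adss, Cep57 and Papola (0.033 to 0.038), and Clec4n to Psap, Alox5ap and Slc11a2 (0.137 to 0.151).

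**Figure D5:**
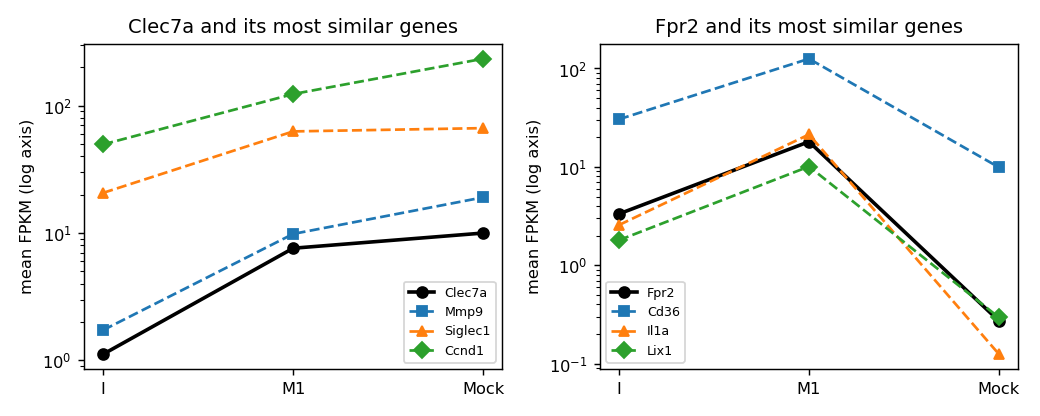
Mean FPKM (log axis) in I, M1 and Mock for Clec7a and Fpr2 (solid lines) and the 3 genes with the smallest profile distance to each (dashed lines). Clec7a and Mmp9 are lowest in I and highest in Mock, while Fpr2, Cd36, Il1a and Lix1 peak in M1.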

How the data were processed

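RNA of 9 RAW264.7 libraries was measured. Values deposited by the authors are FPKM, a unit read from the values since no header names it. Per the submitters' processing notes, fastp 0.20.1, HISAT2 2.2.1 and featureCounts 2.0.1 were used with GRCm38, while their settings, any use of strand and the annotation were not given in the sources used here. Every row is above 0 in all libraries, so a gene at 0 in any library is not analysed here. FPKM times GENCODE vM21 exon length (97.8% of rows matched) gave whole fragments within 0.05 in 98.4% to 98.6% of values.

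Rows with at least 0.5 FPKM in at least 3 libraries (11156) were fitted with limma 3.58.1 in R 4.3.3 on log2(FPKM + 1), with 1 term per group, moderated variances and an intensity trend. P-values were Benjamini-Hochberg adjusted over all tested genes, with a threshold of 0.05. The model was tested on simulated data. SDs are over 3 libraries. The members and gene lists were chosen with earlier results of these data known. Named genes are the members, set signal carriers, up to 5 listed genes per comparison with the smallest p and 5 FPKM or more, and the 3 nearest profiles. The text gives part of them, picked with values seen, plus Clec4 and Clec7a neighbours. Alternatives were other pseudocounts, filters, scalings, variance models, limma-voom on fragments, a replicate block and leaving out each library.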

Additional observations from a re-analysis of the deposited data

How the results depend on the processing

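Of 360 pairs of a receptor's log2 fold change and an alternative, 352 kept direction and call, and none reversed. Exceptions are as follows. Clec7a in M1 vs Mock was not called with median-of-ratios (-0.07) or quantile scaling (-0.08). Clec5a in I vs M1 became called with median-of-ratios (0.12), upper quartile (0.10) and quantile scaling (0.11), and ranged from 0.03 to 0.07 when single libraries were left out, with a call without M1 replicate 1. Clec4n in I vs Mock ranged from 0.20 to 0.39 when single libraries were left out, losing its call without Mock replicate 2 and without I replicate 1. The cause was not tested. Same-numbered libraries did not deviate together (correlations of deviations from the group means -0.12 to 0.05). With 3 libraries per group this cannot show whether the numbers pair them, and the labels do not say. A replicate block gave 9548 calls in M1 vs Mock, 7032 in I vs M1 and 9663 in I vs Mock, against 9571, 7157 and 9680 without it, and changed no receptor's call. Depth limits Clec4n and the Mock level of Fpr2, which rest on 11 to 104 and 3 to 10 fragments per library.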

Other observations

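Genes around the receptors on the chromosome were read in windows of 500 kb, chosen after the values had been seen. Near Clec7a, 4 other genes were tested: Clec2d, Cd69, Clec12a and the autophagy gene Gabarapl1. All 4 were higher in M1 vs Mock (30.5% of all tested genes were) and all 4 were lower in I vs M1 (39.3% were), whereas Clec7a was lower in both. The fall of Clec2d in I vs M1 was small (log2 fold change -0.21, limma adjusted p = 0.0287), and its I and M1 values overlapped. With each of the 3 scalings, the listed other C-type lectin genes had 3 lower calls in I vs M1 in place of 4. That of Clec2d is the weakest of the 4. Cd69 had no Mock library at 0.5 FPKM and was tested only through the polarized groups, so its higher level in M1 adds nothing to the count. Clec12a changed most with iodide (log2 fold change -1.66, limma adjusted p = 1.06e-10), and Cd69, an early activation marker of leukocytes, was at 5.44 ± 0.27 FPKM in I, 8.88 ± 0.44 in M1 and 0.442 ± 0.06 in Mock (SD, n = 3 each).

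Around the Clec4 genes 6 others were tested, of which 4 were higher and 1 lower in M1 vs Mock, beside 30.5% and 55.3% of all tested genes. In I vs M1 2 were higher and 1 lower, beside 24.9% and 39.3%. Clec4a1, 1 of those 2, passed the filter only through its I libraries. The glucose transporter gene Slc2a3 averaged 41.2 FPKM in I, 23.7 in M1 and 6.66 in Mock. Clec4a3, a lectin gene of the same cluster, averaged 0.955 FPKM in I, 0.744 in M1 and 2.901 in Mock, lower in both polarized groups. Lix1, which ranked among the 3 genes most like Fpr2, ends 428.4 kb before Fpr2 on chromosome 17 and averaged 1.80 FPKM in I, 10.1 in M1 and 0.295 in Mock. The genes tested between them, Lnpep and Spaca6, did not share that profile: Lnpep averaged 31.1 FPKM in I, 29.8 in M1 and 21.9 in Mock, and Spaca6 averaged 2.91 FPKM in I, 1.97 in M1 and 2.43 in Mock.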
